A study of Mus musculus with 13 samples.

Results

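The genes described here encode the protein components of the cytosolic ribosome. They were chosen by symbol: every gene of the expression table whose symbol begins with Rpl or Rps followed by a number, leaving out the S6 kinases (Rps6k). The rule found 81 of 15176 genes. Of these, 42 encode large-subunit proteins, 30 encode small-subunit proteins and 7 are paralogs of them. The other 2 carry a matching symbol without being subunit genes: Rpl34-ps1, a processed pseudogene, and Rps19bp1, a protein that binds Rps19.

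The cytosolic ribosome pairs a small subunit, which decodes mRNA, with a large subunit, which forms the peptide bond. Each subunit is built in the nucleolus from ribosomal RNA and 1 copy of most of its proteins, so the genes for these proteins are usually transcribed together and at high levels. Many of their mRNAs start with a run of pyrimidines, the terminal oligopyrimidine (TOP) motif, through which mTOR signalling controls their translation. A few members have paralogs expressed in particular tissues, such as Rpl10l and Rpl39l in testis and Rpl3l in heart and skeletal muscle.

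The series follows mouse fibroblasts treated with small molecules towards pluripotency, by RNA sequencing of 13 libraries. Mouse embryonic fibroblasts (MEF, 3 libraries) came from C57xICR embryos, were untreated and grew in serum. Cells negative for an Oct4-GFP reporter (GFP-negative, 2 libraries) were C57xICR cells under the treatment coded VC6TF. GFP-positive clusters and GFP-positive colonies (1 library each) were C57xICR cells under VC6TF+Z. All 3 kinds of GFP-scored material were picked from the cultures for RNA, per the labels, and no sort is stated. The embryonic stem cells (ESC, 4 libraries) were the single line R1, strain 129, untreated. The chemically induced pluripotent stem cells (CiPSC, lines 6 and 11, C57xICR, VC6TFMB+Z) and the ESC were kept on mitomycin C-treated MEF feeders, so strain and culture differ between ESC and MEF together with cell type and cannot be told apart. The labels do not say that libraries of a group came from separate cultures, so p-values measure only the spread between these libraries.

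Expression was given as RPKM, a count of reads divided by gene length and by the size of the library. The libraries fell into 3 sets. The first set held MEF 1 and 2, ESC 1 and 2, GFP-negative 1 and 2, and the clusters. The second set held MEF 3, the colonies and ESC 3, and the third set held CiPSC 6, CiPSC 11 and ESC 4. From the values, RPKM was taken to be per kilobase of the whole gene span, introns included, in the first and second sets. It was taken to be per kilobase of exon in the third, which no source used here states, so levels are compared within a set and those between genes of the third set rest on this reading. Estimated depth was 8.88 to 17.7 M reads in the 10 gene-span libraries and is unknown in the third set. Pluripotency markers (Pou5f1, Nanog, Sox2, Sall4, Dppa5a) summed to 808 to 999 RPKM in ESC 1 to 3, 644 RPKM in the colonies and 1.08 RPKM in the clusters, which lay between the GFP-negative libraries (0.524 and 1.56 RPKM). The library labelled GFP-positive clusters thus lacked the markers its label implies. In the colonies most of the sum came from Dppa5a (513 RPKM) and Pou5f1 (124 RPKM). Nanog, Sox2 and Sall4 were only 0.0418, 2.8 and 4.85 RPKM there. All of these were well below ESC 3, where Nanog was 55.4 RPKM and Sall4 14.6 RPKM. In MEF 3, 4 of 4 macrophage markers (Lyz2, Cd68, Laptm5, Csf1r) were above MEF 1 and 2, with a sum of 188 RPKM against 18.1 and 29.3 RPKM, and their part in the results below was not tested.

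The start sites of some members show the pyrimidine runs for which the family is known. Those printed were picked to show the range of runs among subunit genes and paralogs, and are not typical of either class. Start sites came from the RefSeq annotation of GRCm38.p6, in which 61 members were found. Each line gives 15 bases before and 15 bases after the start, 5′ to 3′ on the strand of the gene, with the longest run of C and T in capitals.
Rpl7a, chr2:26910792-26910821, plus strand: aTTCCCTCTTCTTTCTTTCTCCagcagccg
Rpl27a, chr7:109519180-109519209, plus strand: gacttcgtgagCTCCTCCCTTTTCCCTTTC
Rpl35, chr2:39005117-39005146, minus strand: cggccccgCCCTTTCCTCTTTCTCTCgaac
Rps6, chr4:86857353-86857382, minus strand: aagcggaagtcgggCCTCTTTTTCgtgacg
Rpl38, chr11:114668565-114668594, plus strand: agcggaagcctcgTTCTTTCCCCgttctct
Rps3, chr7:99483695-99483724, minus strand: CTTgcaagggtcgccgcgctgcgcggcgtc
Rpl22l1, chr3:28805493-28805522, plus strand: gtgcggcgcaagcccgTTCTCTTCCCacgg
Rpl10l, chr12:66284387-66284416, minus strand: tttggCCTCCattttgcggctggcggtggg
Rpl39l, chr16:10170213-10170242, plus strand: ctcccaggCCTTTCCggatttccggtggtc
The run was 21 bases in Rpl7a, 19 in Rpl27a, 18 in Rpl35 and 10 in Rps6 and Rpl38, but 3 in Rps3. Among paralogs it was 10 in Rpl22l1, 5 in Rpl10l and 7 in Rpl39l, and the median over subunit genes was also 7. A run of 8 or more bases was present in 24 of 53 subunit genes (45.3%) and in 2 of 8 paralogs and other symbols, and in 13.9% of the 27025 genes with such a window. A run is a description of the sequence, not evidence of regulation.

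Many members share sequence with processed pseudogenes, which bears on every value. The coding sequence of the median member had 95.7% of its 36-base windows in the transcripts of another gene. All windows were shared in 31 of 81 members and none in 2 (Rpl3l and Rps19bp1), and the median member shared windows with 11 pseudogenes. How the authors assigned such reads is not given in the sources used here, so the level of a single subunit gene is uncertain. Rpl34-ps1, whose transcript was 99.4% identical to Rpl34, is an example. It was the member with the highest RPKM in 9 of 10 gene-span libraries, but RPKM divides by length and its span is only 0.413 kb. By estimated reads it was not the highest, with 2094 in MEF 1 beside 6297 for Rpl4. Of the paralogs, Rpl10l shared no 36-base window with Rpl10, Rps27l none with Rps27 and Rpl22l1 none with Rpl22. Reads of that length can thus tell each paralog from its parent, but not always from other genes, mostly pseudogenes. Of their windows, 29.3% in Rpl10l, 58.6% in Rps27l and 88.3% in Rpl22l1 occurred in another gene. The share was 100% in Rpl10 and Rps27 and 47.4% in Rpl22. The first 90 coding bases of Rpl10l, Rps27l and their parent genes, pairs described below, are given from GENCODE M21, with differing bases in capitals.
Rpl10l: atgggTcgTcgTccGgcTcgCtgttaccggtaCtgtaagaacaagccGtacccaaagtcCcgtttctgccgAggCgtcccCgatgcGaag
Rpl10: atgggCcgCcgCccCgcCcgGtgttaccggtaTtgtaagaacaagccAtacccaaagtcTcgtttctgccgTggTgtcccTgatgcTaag
Rps27l: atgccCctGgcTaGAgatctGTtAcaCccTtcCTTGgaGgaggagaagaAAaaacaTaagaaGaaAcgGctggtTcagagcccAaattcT
Rps27: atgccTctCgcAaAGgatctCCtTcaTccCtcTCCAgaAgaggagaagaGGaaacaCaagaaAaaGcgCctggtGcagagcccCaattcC
Rpl10l and Rpl10 differed at 13 of these bases and were 84.8% identical over their coding sequences. Rps27l and Rps27 differed at 24 and were 76.1% identical.

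Ribosomal protein genes were higher in ESC than in MEF as a group. In the first set the RPKM summed over the 81 members was 2722 and 2706 in MEF 1 and 2 and 4603 and 4866 in ESC 1 and 2. In the second set it was 5219 in MEF 3 and 8460 in ESC 3. The ESC libraries were above the MEF libraries of their own set in both. The members' share of all RPKM weighted by gene span was 1.19% and 1.21% in MEF 1 and 2, 2.29% and 2.28% in ESC 1 and 2, 1.74% in MEF 3 and 3.22% in ESC 3. In bulk libraries like these, more cells with high levels and more RNA per cell cannot be told apart.

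Gene by gene, changes were tested with limma on log2(RPKM + 1), with group and library set as terms over all 13 libraries, and p-values were adjusted by the Benjamini-Hochberg method over 10647 genes. Of the 80 members tested (Rpl3l was too low), 32 were higher in ESC than in MEF at an adjusted p under 0.05 and 0 were lower. That is 40% of the members, against 19.1% of all tested genes called higher and 13% called lower. The change was positive for 77 members, as for 60.5% of all genes. Its median was 0.76 on the log2 scale, 1.69-fold, against 0.14 for all genes tested. The call was made for 14 of 42 large-subunit genes (median 0.73), 13 of 30 small-subunit genes (median 0.78) and 4 of 6 paralogs (median 0.82). Both ESC libraries of the first set exceeded both MEF libraries for 66 of 80 members, as for 41.6% of all genes. In the second set ESC 3 exceeded MEF 3 for 79 of 80, all except Rpl22l1, as for 59.9% of all genes. The direction held in every alternative run and the number of calls did not. In the first set alone 5 members were called higher, 6.25% beside 7.96% of all genes. With a term for the length scale 8 were called, 10% beside 14.1%, and in the 10 gene-span libraries 15, 18.8% beside 14.2%. The share of members called was thus above that of all genes in some fits and below it in others. Without MEF 1, 2 or 3 the count was 17, 16 or 19 (21.2%, 20% or 23.8%, beside 11.2%, 12% or 12.8% of all genes). Without ESC 1, 3 or 4 it was 19, 19 or 15 (23.8%, 23.8% or 18.8%, beside 14%, 13% or 14.2%). Leaving out ESC 4 also removed the CiPSC lines, so that run is the fit of the 10 gene-span libraries again. Without either CiPSC line it was 17 (21.2% beside 13.1%), and without either GFP-negative library 60 (75% beside 27.6%).

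**Figure D1:**
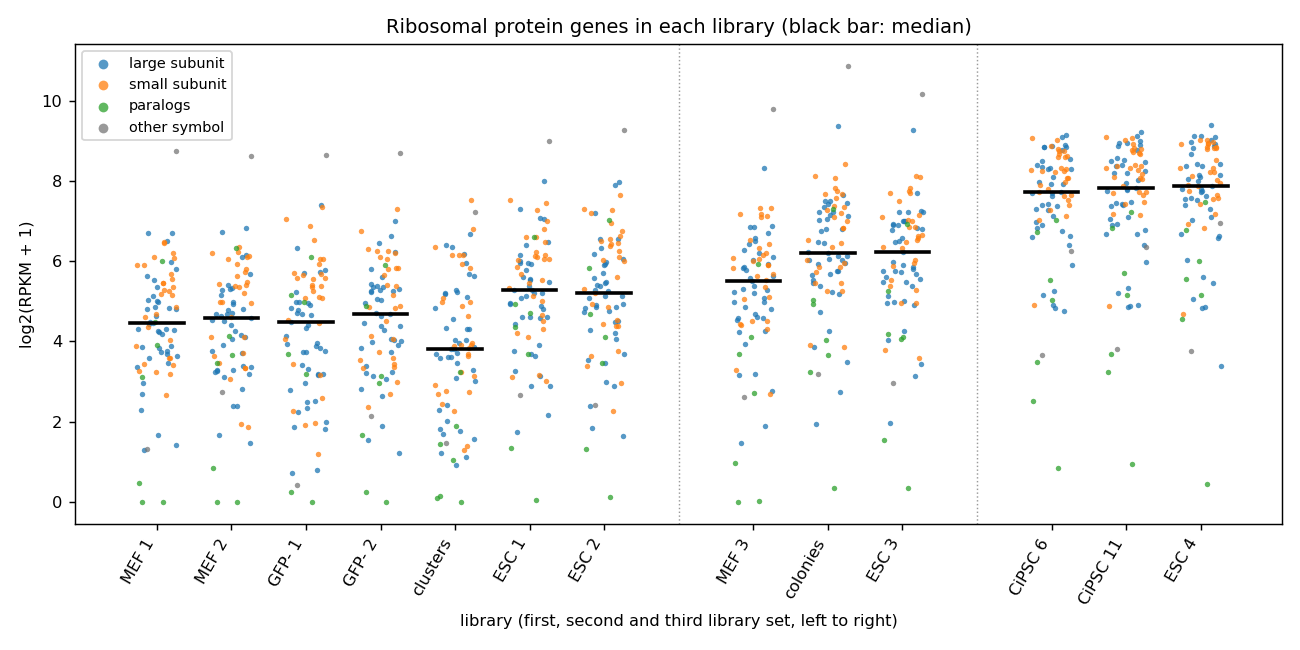
Level of each of the 81 ribosomal protein genes, as log2(RPKM + 1), in the 13 libraries, with 1 point per gene coloured by class and a black bar at the median. The median RPKM was 20.8 and 23.2 in MEF 1 and 2, and 37.8 and 35.9 in ESC 1 and 2, and was lowest in the clusters. The third set is on a different length scale and stands at 210 to 234.

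Among small-subunit genes Rps2 was one of those with the largest rises in ESC. Rps2, a protein near the mRNA entry channel, had 13.8 and 16.4 RPKM in MEF 1 and 2 and 66.5 in MEF 3, against 39.4 and 38.7 in ESC 1 and 2 and 137 in ESC 3. Within each set the ESC values were more than the MEF values, with no overlap, while MEF 3 was above ESC 1 and 2. The change was 1.23 ± 0.21 (log2, SE; limma adjusted p = 0.00426). Rps2 was called in 17 of 19 alternative analyses. Rps6, the substrate of the S6 kinases, also rose, by 0.78 ± 0.16 (limma adjusted p = 0.00881). Rps19, the gene most often mutated in Diamond-Blackfan anaemia, had a change of 0.89 ± 0.44 that was not called (limma adjusted p = 0.159).

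Among large-subunit genes Rpl9 and Rpl12 had the largest changes. Rpl12, part of the base of the stalk that recruits translation factors, had 11.1, 7.63 and 28.2 RPKM in MEF 1 to 3 and 23.3, 28.1 and 52.6 in ESC 1 to 3. ESC exceeded MEF within each set, and the change was 1.21 ± 0.29 (limma adjusted p = 0.0169). Rpl9, also near the stalk base, had 5.42, 8.67 and 17.8 RPKM in MEF 1 to 3 and 20.7, 18.6 and 34.3 in ESC 1 to 3. Its ESC values were higher within each set as well, but its change of 1.23 ± 0.38 (limma adjusted p = 0.042) was called in only 3 of 19 alternatives. Rpl5, which with Rpl11 and 5S rRNA binds the p53 regulator Mdm2, rose by 1.12 ± 0.25 (limma adjusted p = 0.0128), and Rpl11 had a change of 0.53 ± 0.24 (limma adjusted p = 0.135). Rpl38, which in mice affects translation of Hox mRNAs, rose by 1.12 ± 0.27 (limma adjusted p = 0.0162), and Rpl10a had a change of 0.49 ± 0.20 (limma adjusted p = 0.0997). The 26 called members other than the 6 with the largest changes rose by 0.43 to 1.16.

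**Figure D2:**
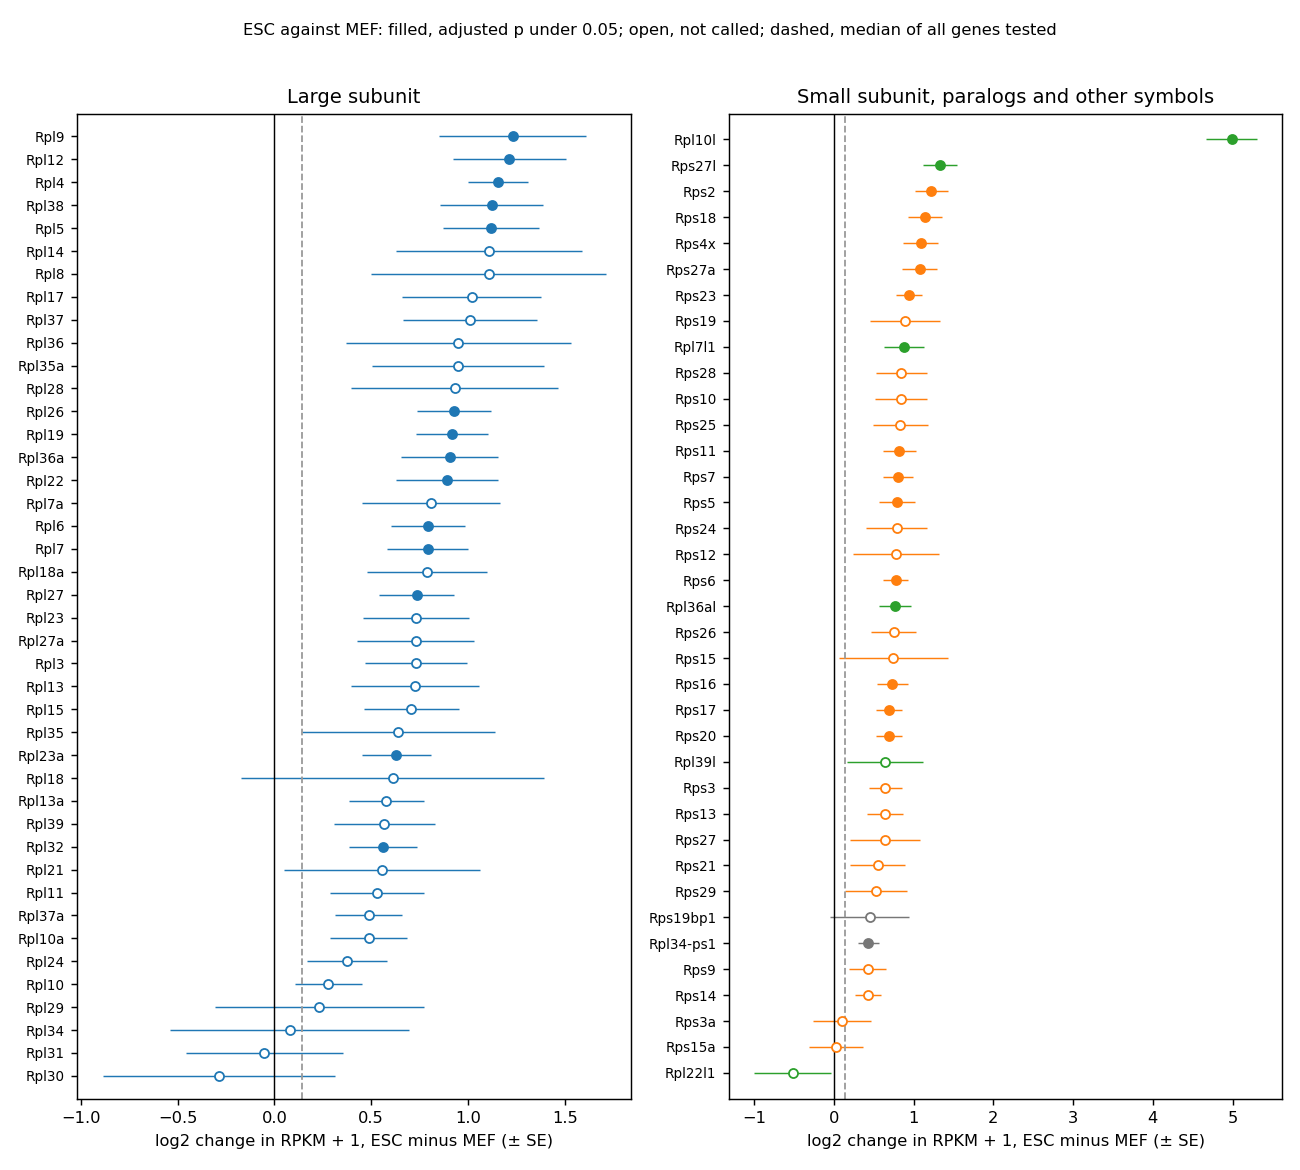
Change of 79 of the 80 tested ribosomal protein genes from MEF to ESC on the log2 scale with its standard error, in 2 panels by class. Filled points were called at an adjusted p under 0.05, the dashed line is the median of all genes tested (0.14), and Rpl10l stands apart at 4.99.

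The change from MEF to ESC was also set beside the pyrimidine run at the start. The median change from MEF to ESC was 0.74 over the 24 subunit genes with a run of 8 or more bases, of which 5 (20.8%) were called. It was 0.79 over the 29 with a shorter run, of which 13 (44.8%) were called, beside 19.1% of all genes. The changes ranged from -0.05 to 1.16 with a long run and from 0.10 to 1.23 with a shorter one, and no test was made between the groups.

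Rpl10l was the member with the largest change. It is an intronless copy of Rpl10, a protein that joins the large subunit late in its maturation, and in males it takes over from X-linked Rpl10 during meiosis. Rpl10l was listed at 0 in MEF 1 and 2 and at the fill value of 0.001 RPKM in MEF 3. It was 0.177 and 0.19 RPKM in the GFP-negative libraries and 0.11 RPKM in the clusters, about 2, 2 and 1 reads. It reached 29.6 and 56.1 RPKM in ESC 1 and 2, 17.3 in ESC 3 and 29.6 in the colonies. The libraries split without overlap into ESC and colonies, where it was abundant, and the rest of the gene-span libraries, where it was absent or nearly so. Against a floor of 3 reads in a MEF library, ESC 1, the lower of its pair, was at least 119-fold higher and ESC 3 at least 56.6-fold higher. The fitted change was 4.99 ± 0.32 against MEF (limma adjusted p = 6.02e-05) and 4.94 ± 0.38 against GFP-negative cells (limma adjusted p = 0.000142), sizes that depend on the added 1 RPKM and are no bounds. It was called in 19 of 19 alternatives of each comparison. Its parent Rpl10 had 31.1, 39.4 and 114 RPKM in MEF 1 to 3 and 46.4, 43.2 and 126 in ESC 1 to 3, and was not called (0.28 ± 0.17, limma adjusted p = 0.257). On the scale of the third set, read as exonic, Rpl10l was 45.9 RPKM in ESC 4 beside 221 for Rpl10.

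Rps27l differed from Rpl10l in that it rose in the treated GFP-negative cells as well as in ESC. It is a p53-induced paralog of Rps27. Rps27l was 7.72, 10.1 and 11.8 RPKM in MEF 1 to 3, 34.4 and 28.4 in the GFP-negative libraries, 19.4, 24.6 and 37.1 in ESC 1 to 3, 32.0 in the colonies and 1.73 in the clusters. Both GFP-negative libraries exceeded the MEF and ESC libraries of their set, and the clusters were the lowest of the 10. The rise was 1.77 ± 0.25 in GFP-negative cells (limma adjusted p = 0.00503) and 1.34 ± 0.21 in ESC (limma adjusted p = 0.0034), both against MEF. ESC and GFP-negative cells were not called different (-0.44 ± 0.25, limma adjusted p = 0.211). Rps27 itself was 15.5, 16.2 and 45.0 RPKM in MEF 1 to 3 and 60.1 and 15.6 in the GFP-negative libraries, which differed from each other far more than the MEF libraries of that set.

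The other paralogs followed no single pattern. Rpl39l, a testis-enriched paralog of the exit-tunnel protein Rpl39, was 0.378, 0.793 and 0.954 RPKM in MEF 1 to 3, 11.9 and 2.19 in GFP-negative cells, 1.56, 1.5 and 1.9 in ESC 1 to 3, 8.39 in the colonies and 0.0718 in the clusters. Its values were highest in 1 GFP-negative library and in the colonies, and its change of 2.01 ± 0.56 in GFP-negative cells against MEF was not called (limma adjusted p = 0.0576). Rpl22l1, whose mRNA is repressed by Rpl22 protein, was 21.6, 16.5 and 16.4 RPKM in MEF 1 to 3 and 11.8, 10.1 and 15.7 in ESC 1 to 3. It was the only member below MEF in ESC in both sets, though its change was not called (-0.51 ± 0.48, limma adjusted p = 0.451), while Rpl22 rose by 0.89 ± 0.26 (limma adjusted p = 0.0373). Rpl36al and Rpl7l1 rose in ESC against MEF by 0.77 ± 0.20 and 0.88 ± 0.26 (limma adjusted p = 0.0239 and 0.0342), beside 0.90 ± 0.25 for Rpl36a and 0.79 ± 0.21 for Rpl7. Rpl3l stayed at 0 in MEF 1 and 2, the GFP-negative cells and the clusters, and at most 0.275 RPKM in any gene-span library.

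**Figure D3:**
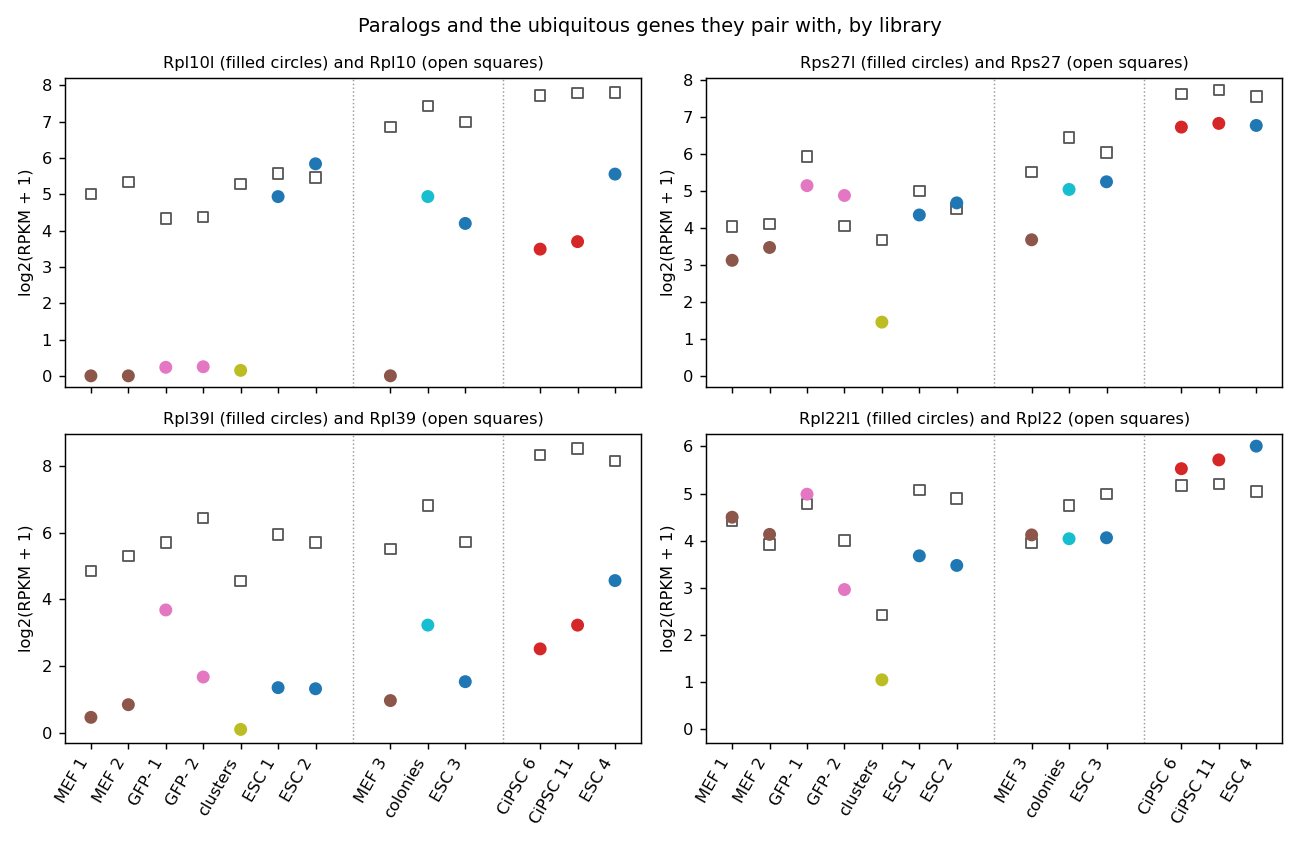
Level, as log2(RPKM + 1), of 4 paralogs (filled circles, coloured by group) and of the genes they pair with (open squares) in each library, with dotted lines between the library sets. Rpl10l is near 0 in MEF, GFP-negative cells and clusters and high in ESC and colonies, and Rps27l is high in both GFP-negative libraries.

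Few members were called between GFP-negative cells and MEF. The summed RPKM was 2834 and 3018 in the GFP-negative libraries beside 2722 and 2706 in MEF 1 and 2. Of 80 members 2 were called higher and 2 lower, beside 5.46% and 6.56% of all genes tested (5% together, beside 12%), and the median change was -0.09 beside -0.07 for all genes. The members split into 34 positive and 46 negative changes, beside 42.8% positive over all genes. When each library was centred on its median the split was 45 and 35, beside 57.4% positive. Rps27l was among those called higher, and Rps13 and Rpl10 were called lower. Rps13, a small-subunit protein at the subunit interface, had 9.8 and 9.95 RPKM in MEF 1 and 2 and 3.77 and 4.18 in the GFP-negative libraries of the same set. Both MEF values were above both GFP-negative values, with a change of -1.05 ± 0.27 (limma adjusted p = 0.0439). Rpl10 had 19.2 and 19.8 RPKM in the GFP-negative libraries, below MEF 1 and 2 of the same set (-0.85 ± 0.20, limma adjusted p = 0.0363). Without GFP-negative 1 the counts were 6 higher and 6 lower (7.5% each, beside 8.9% and 5.72% of all genes). Without GFP-negative 2 they were 10 and 16 (12.5% and 20% beside 13.5% and 17%). With median centring they were 3 and 0 (3.75% and 0% beside 6.76% and 4.67%). The higher count was 1 without MEF 1, MEF 2, ESC 4 or either CiPSC line (1.25%, beside 2.52% to 2.98% of all genes). The lower count was 0 without any of these or ESC 1 (beside 2.72% to 5.11%).

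The GFP-negative libraries lay far apart. The same member differed by 2-fold or more between them in 29 of 80 cases, against 4 between MEF 1 and 2 and 5 between ESC 1 and 2. The pair also diverged over all genes with a mean of 10 RPKM or more, 28.8% of which differed by 2-fold, beside 4.71% in MEF and 9.43% in ESC. Rpl18 was the extreme, with 0.739 and 15.8 RPKM. Rpl8 had 14.6 and 98.2 RPKM, so that 1 library was far below and the other above MEF 1 and 2 (89.3 and 67.9). Rps12 had 1.29 and 11.1 RPKM in the GFP-negative libraries, 1 far below MEF 1 and 2 (11.0 and 12.1) and the other at their level.

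Against GFP-negative cells, ESC had 29 of 80 members called higher and 0 lower, beside 22.4% and 12.2% of all genes tested. The change was positive for 73 members, as for 60.8% of all genes, with a median of 0.74 beside 0.19 for all genes. This comparison and that against MEF share their ESC libraries. Rpl12 and Rps13 were called in 19 of 19 alternatives. Rpl12 had 3.69 and 7.75 RPKM in GFP-negative cells and rose by 1.97 ± 0.34 in ESC (limma adjusted p = 0.00413), and Rps13 rose by 1.69 ± 0.27 (limma adjusted p = 0.00284). Rpl13, on the surface of the large subunit, had 12.3 and 32.4 RPKM in GFP-negative cells against 84.4 and 79.2 in ESC 1 and 2, without overlap (1.89 ± 0.39, limma adjusted p = 0.00838). The calls for Rps12 (2.08 ± 0.63, limma adjusted p = 0.037) and Rpl14 (1.72 ± 0.56, limma adjusted p = 0.0485) rest on GFP-negative libraries that differed 4-fold or more, and held in 5 and 3 of 19 alternatives. Without GFP-negative 2, 5 members were called lower in ESC, 6.25% beside 17.2% of all genes. The higher count was 13 in the first set alone (16.2% beside 15% of all genes). It was 18 without ESC 4, which removed the CiPSC lines too (22.5% beside 17.9%). It was 19 without ESC 1 (23.8% beside 18.0%) or either CiPSC line (23.8% beside 16.7%).

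The clusters had the lowest levels of the first set. Their members summed to 2135 RPKM, of which Rpl34-ps1 gave 148, beside 391 to 622 for that pseudogene in the other 6 libraries. Of 80 tested members, 34 were below all 6 other libraries of the set, as were 25.9% of all genes. With 1 library there is no test, and all values compare this library with the others. Against the mean of the GFP-negative libraries, 28 members were lower by 2-fold or more and 5 higher, beside 13.2% and 11.4% of all genes, and the median difference was -0.49 beside -0.07. Against MEF 1 and 2 the counts were 26 lower and 5 higher (16.7% and 11.6% of all genes; median -0.59 beside -0.17). Against ESC 1 and 2 they were 52 lower and 2 higher (23.1% and 14.3%; median -1.35 beside -0.28), and 69 of 80 were below both ESC libraries, as were 58.1% of all genes. The split against ESC was 6 positive and 74 negative, and 17 and 63 after median centring. This library had the lowest depth of the 10, and its part in the values was not tested.

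Single members went opposite ways in the clusters. Rps27l (1.73 RPKM), Rpl22l1 (1.05) and Rpl36al (8.38, against 67.5 and 58.6 in the GFP-negative libraries) had the lowest values against GFP-negative cells among members at 10 RPKM or more in the higher group, with differences of -3.56, -2.93 and -2.77, followed by Rps23 (-2.30). Rpl39l, a low member, had a difference of -2.58. Against MEF and ESC, Rps20 and Rps12 were also among the lowest, with 8.39 and 1.61 RPKM in the clusters beside 42.8 and 48.4 and beside 11.0 and 12.1 in MEF 1 and 2. Rpl30, whose protein also regulates its own mRNA, was 70.9 RPKM in the clusters beside 4.67 and 24.7 in GFP-negative cells, 18.7 and 16.9 in MEF 1 and 2 and 14.0 and 6.43 in ESC 1 and 2. It lay above all of them. Rpl36a was 33.5 RPKM beside 7.99 and 8.44 in GFP-negative cells. Rpl30, Rpl36a and Rps29 were the 3 members above all other first-set libraries (3.75%, beside 16.5% of all genes).

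Ribosomal protein genes were above MEF 3 in the colonies, and most were also above ESC 3. The members summed to 10080 RPKM in the colonies, 5219 in MEF 3 and 8460 in ESC 3, so the colonies were the highest of the 3. Of these sums the pseudogene Rpl34-ps1, with its short span, gave 1876, 884 and 1148 RPKM. Against MEF 3, 30 members were higher by 2-fold or more and 0 lower, beside 7.86% and 8.24% of all genes, with a median difference of 0.93 beside 0.01. All tested members except Rpl22l1 and Rps2 were above MEF 3, as were 51.5% of all genes. Rpl10l at 29.6 RPKM was at least 96.7-fold above the MEF 3 floor, and Rps21, a small-subunit protein, was 213 RPKM beside 70.7 in MEF 3. Rpl27a had 149 RPKM beside 56.5, and Rpl36al 156 beside 59.5.

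Against ESC 3, 2 members were higher by 2-fold or more and 1 lower, beside 8.83% and 9.72% of all genes, and the median difference was 0.20 beside -0.12. Of the members, 54 were higher and 26 lower (39.7% of all genes were higher), and 67 and 13 after median centring, which moved the median difference to 0.36. Rpl39 was higher (112 beside 51.7 RPKM), as was Rpl39l (8.39 beside 1.9 RPKM). Rps2 was lower, with 64.8 beside 137 RPKM, and sat at the MEF 3 level of 66.5. Rps28 had 155 beside 79.8 RPKM. Rpl3, Rps18 and Rpl7l1 were lower by 0.68, 0.63 and 0.46 on the log2 scale.

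**Figure D4:**
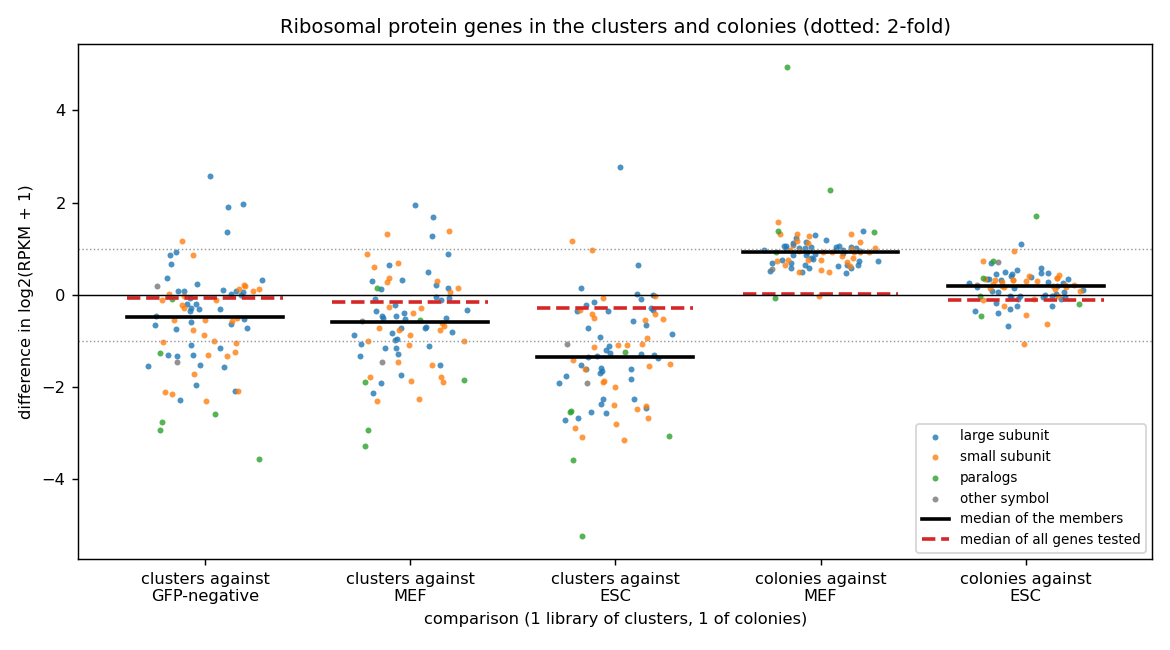
Difference in log2(RPKM + 1) of each of 80 members between the clusters or colonies (1 library each) and libraries of the same set, with the median of the members (black) and of all genes tested (dashed red). The clusters lie below ESC (median -1.35), and the colonies lie above MEF 3 (median 0.93) and near ESC 3 (median 0.20).

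No member was called between CiPSC lines and ESC. The count was 0 of 80 in either direction by limma, with 6 at an unadjusted p under 0.05, beside 0.432% of all genes called. The median change was -0.06 beside 0.02. The summed RPKM was 19302, 20325 and 20945 in CiPSC 6, CiPSC 11 and ESC 4. Both lines were below ESC 4 for 46 members and above it for 23, as for 41.3% and 48.2% of all genes. Line 11 was above line 6 for 70 members, as for 44.0% of all genes, by a median of 0.08 on the log2 scale. In the third set alone, where ESC has 1 library and the spread comes from the CiPSC lines only, limma called 5 members higher and 14 lower, 6.25% and 17.5%, below the 23.0% and 20.0% of all genes called there, so these counts show nothing particular to the members. Rpl10l was 10.2 and 11.9 RPKM in the CiPSC lines against 45.9 in ESC 4, and Rpl39l 4.73 and 8.38 against 22.7. Both testis paralogs were thus lower in each line than in ESC 4. In the opposite direction, Rpl29, a protein at the surface of the large subunit, was 59.2 and 62.0 RPKM against 9.47, and Rps3a was 297 and 317 against 113. In the model over all libraries none of the 4 was called (Rpl10l -1.96 ± 0.48, limma adjusted p = 0.237; Rpl29 2.56 ± 0.81, limma adjusted p = 0.448).

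If the third set is per kilobase of exon, the levels of its members can be compared. Rpl4 (549 to 597 RPKM) and Rpl8 (543 to 673 RPKM) led the third set, followed by Rps26, Rps4x, Rpl7a and Rps28. At the other end among subunit genes, Rps15a was 24.8 to 28.9 RPKM, Rpl5 27.5 to 28.8 RPKM and Rpl31 27.5 to 28.9 RPKM. In the third set the subunit genes thus spanned a wide range of levels, and reads shared with pseudogenes enter these values. The product of RPKM and length in ESC 1 and 2 (gene span) was divided by that in ESC 4 (exon). This ratio ranged from 0.026 to 5.35 over 80 members. Its median was 0.33, beside 1.41 over genes at 1 RPKM or more in ESC 4. The 2 products were 312 and 110 for Rpl5 and 82.3 and 898 for Rps28, so the order of these genes reversed between the sets.

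The second set read higher than the first, and the shift differed from gene to gene. Of 80 members, 20 were called higher and 1 lower in the second set, beside 7.79% and 0.686% of all genes (8.47% together), and the median was 0.92 beside 0.11. Rps21 was 1.47 to 8.02 RPKM in the 7 first-set libraries and 70.7, 213 and 127 in MEF 3, colonies and ESC 3, a change of 4.07 ± 0.36 (limma adjusted p = 0.00143) with no overlap whatever the cell type. Rpl29 was 2.99 to 15.2 RPKM in the first set and 67.9, 138 and 149 in the second (3.27 ± 0.57, limma adjusted p = 0.0156). Rpl36 had a change of 2.96 ± 0.62 (limma adjusted p = 0.028), Rps2 1.93 ± 0.22 (limma adjusted p = 0.00306), Rpl15 1.77 ± 0.26 (limma adjusted p = 0.00783) and Rpl23a 1.76 ± 0.19 (limma adjusted p = 0.00242). Rpl21 went the other way, with 8.15 to 37.5 RPKM in the first set and 2.68, 5.65 and 7.80 in the second (-2.41 ± 0.54, limma adjusted p = 0.0345). The calls for Rps21, Rps2 and Rpl23a held in 14 of 14 alternatives, those for Rpl15 and Rpl29 in 13 and 12, that for Rpl36 in 7 and that for Rpl21 in 4. The set count was 9 to 13 without any 1 of the MEF libraries, ESC 3, ESC 4 or a CiPSC line. That is 11.2% to 16.2%, beside 3.43% to 5.41% of all genes. It was 45 without either GFP-negative library (56.2%, beside 16.0% and 16.1%). The difference between ESC and MEF itself was not called different between the sets for any member (0 of 80 by limma, 1 at an unadjusted p under 0.05, beside 1.02% of all genes called). What made the sets differ is not given in the sources used here.

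**Figure D5:**
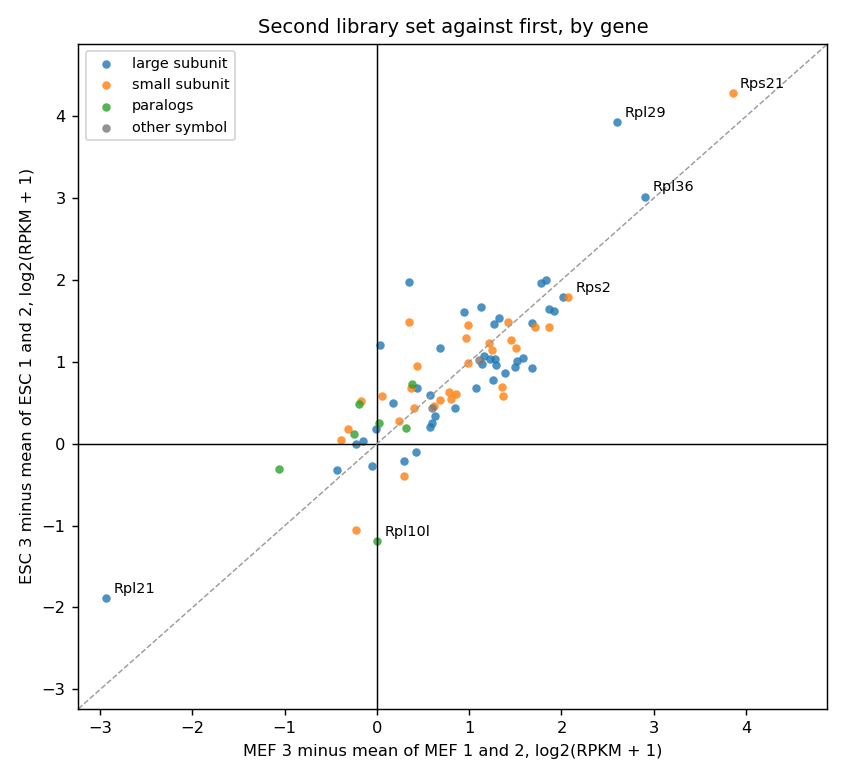
Shift of each member between library sets, as the difference in log2(RPKM + 1), for MEF (horizontal axis, MEF 3 minus the mean of MEF 1 and 2) and ESC (vertical axis, ESC 3 minus the mean of ESC 1 and 2), with equality dashed. Rps21, Rpl29 and Rpl36 are higher and Rpl21 lower in the second set of both cell types.

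Lists of genes that act around the ribosome are given against the 19.1% of all genes called higher and 13% called lower in ESC against MEF. Of the ribosomal proteins with other symbols, such as Rplp0, Rplp2 and Rpsa, 2 of 6 were called higher and 0 lower, Rpsa (0.93 ± 0.21, limma adjusted p = 0.014) and Rplp2. Of 20 translation factors and related TOP mRNAs, 10 (50%) were called higher and 0 lower (median 0.69), among them the RNA helicase Eif4a1 (1.23 ± 0.20). Of 37 ribosome biogenesis genes, 19 (51.4%) were called higher and 0 lower (median 1.03). Those with the smallest p included Dkc1, the pseudouridine synthase of box H/ACA particles (2.47 ± 0.21), and Polr1b, a subunit of RNA polymerase I (1.33 ± 0.17). Of 18 genes of MYC and mTOR control, 4 (22.2%) were called higher and 2 (11.1%) lower, shares near those of all genes, and 11 changes were positive. Mycn rose (3.61 ± 0.23), while the MYC antagonist Mxd4 (-2.27 ± 0.38) and Myc itself fell. Myc, named after its values were seen, was 10.4, 14.3 and 6.34 RPKM in MEF 1 to 3 and 0.558, 3.61 and 1.98 in ESC 1 to 3 (-1.97 ± 0.45, limma adjusted p = 0.0142). Of 76 mitochondrial ribosomal protein genes, 15 (19.7%) were called higher, about the share of all genes, and 0 lower (median 0.44), beside 32 of the 80 cytosolic members. The difference between the lists was not tested. Against GFP-negative cells, where 22.4% and 12.2% of all genes were called higher and lower in ESC, the same lists gave 2, 10, 20, 6 and 17 genes higher and 0, 1, 0, 1 and 1 lower. In GFP-negative cells against MEF, where the shares of all genes were 5.46% and 6.56%, they gave 0, 1, 0, 0 and 1 higher and 0, 1, 0, 1 and 4 lower.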

How the data were processed

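The deposited table held 1 RPKM column per library, in 15184 gene entries; 8 entries that shared the symbol Ptprf were left out. The submitters' processing notes name TopHat 1.3.0 and mm9. How reads were counted, on which annotation, and what was done with reads that map to several places is not given in the sources. RPKM multiplied by GENCODE M21 gene span gave whole reads for 82.3 to 84.3% of low values (tolerance 0.05) in 10 libraries, from which depth was estimated; the other 3 libraries, with 14.5 to 15.4%, were taken as exonic. Values were analysed as log2(RPKM + 1). Genes that reached 1 RPKM in 2 or more libraries entered the test, made with limma 3.58.1 (R 4.3.3, trend), with group and library set as terms, Benjamini-Hochberg adjustment, and an adjusted p under 0.05 as the call. The fit was tested on simulated data. Single libraries were compared by a 2-fold difference, without a test. Equal replicate numbers did not pair libraries (correlations of deviations -0.0417, -0.0673 and 0.0826). Alternatives were another pseudocount, no filter, median centring, a length-scale term in place of the library-set term, library subsets and leaving out libraries. Members and lists were chosen with earlier results of these data known. The members named are up to 6 called with the largest rise and 6 with the largest fall in each tested comparison, up to 4 each way in a single-library comparison among those at 10 RPKM or more, those called for a set difference, the paralog pairs, some members with known roles, and up to 4 genes of each other list. Rpl8, Rpl18, Rpl4, Rpl31 and Rps15a were named after their values were seen. Floors of 3 reads cover counting error only. Results for some genes are not reported here.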

Additional observations from a re-analysis of the deposited data

How the results depend on the processing

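The positive median change of the members in ESC against MEF and against GFP-negative cells held in every alternative run; the numbers of calls did not hold. Members called higher in ESC than in MEF were 32 (40% beside 19.1% of all genes). They were 8 with a length-scale term (10% beside 14.1%), 5 in the first set only (6.25% beside 7.96%) and 15 in the 10 gene-span libraries (18.8% beside 14.2%). With a log2 change of 1 or more they were 12 of 80, beside 955 of 10647 genes. Leaving out 1 library gave 15 to 60 (18.8% to 75%, beside 11.2% to 27.6%), where the 15 is the gene-span fit again. Higher than GFP-negative cells were 29 (36.2% beside 22.4% of all genes), and 16 with median centring (20% beside 14%). They were 19 with a length-scale term (23.8% beside 20.6%), 13 in the first set (16.2% beside 15%) and 18 in the gene-span libraries (22.5% beside 17.9%). With 1 library left out they were 18 to 43 (22.5% to 53.8%, beside 16.7% to 29.3%), where the 18 is the gene-span fit again. The lower count was then 0 to 5 (0% to 6.25%, beside 9.32% to 17.2%). In GFP-negative cells against MEF, 2 higher (2.5% beside 5.46%) became 1 in the first set or the gene-span libraries (1.25% beside 1.51% or 2.8%). With 1 library left out they became 1 to 10 (1.25% to 12.5%, beside 2.52% to 13.5%). The 2 lower (2.5% beside 6.56%) became 0 with median centring (beside 4.67%) or a length-scale term (beside 4.81%). They also became 0 in the first set (beside 1.92%) or the gene-span libraries (beside 2.72%). They became 1 with a log2 change of 1 or more, beside 538 of 10647 genes, and 0 to 16 leaving out 1 library (0% to 20%, beside 2.72% to 17%). CiPSC against ESC went from 0 to 1 higher with no filter, and to 5 higher and 14 lower in the third set only (23.0% and 20.0% of all genes, above the members' 6.25% and 17.5%). Between library sets, 20 higher became 9 to 45 leaving out 1 library (11.2% to 56.2%, beside 3.43% to 16.1% of all genes). The 1 lower became 0 to 1 leaving out 1 library, and 0 with no filter. Median centring moved the median of all genes from -0.07 to 0.09 (GFP-negative against MEF), from 0.19 to -0.07 (ESC against GFP-negative) and from 0.11 to -0.08 (second set against first).

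With the replicate number as a block, members called were 2 higher (ESC against MEF, 2.5% beside 4.75% of all genes). They were 0 higher and 0 lower in GFP-negative against MEF (beside 0.573% and 0.761%) and 4 higher in ESC against GFP-negative (5% beside 11.4%). The same libraries with no block, an analysis added after seeing the data, gave 5, 1 and 0, and 13. The shares were 6.25% beside 7.99% of all genes, 1.25% and 0% beside 1.61% and 2%, and 16.2% beside 15%. Equal numbers did not pair the libraries. In the single-library comparisons, median centring gave 8 members 2-fold higher in the clusters against GFP-negative cells and 8 against MEF (5 each before), 4 against ESC (2 before), and 0 lower in the colonies against ESC (1 before). Leaving out 1 GFP-negative library gave 5 to 9 higher in the clusters. Named members called in a tested comparison kept their direction in all alternatives. The cause of these shifts was not tested.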
